A study of Mus musculus with 15 samples.

Results

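The genes described here encode the subunits of the transcription factor NF-kB and the inhibitors that hold it in check, measured in group 2 innate lymphoid cells (ILC2s) from mouse lung. The list holds 10 genes: Nfkb1, Nfkb2, Rel and Relb for the subunits, Nfkbia, Nfkbie, Nfkbid, Nfkbiz and Bcl3 for the family of IkB proteins, and Tnfaip3 for the enzyme A20. A gene was followed through the array feature annotated with its symbol alone, which 9 of the 10 had, out of 22180 genes with such a feature. Each of the 9 had 1 feature, and all 9 passed the filter on dim features on 15 of 15 arrays. Nfkb1 had no feature carrying its symbol alone and is not analysed here.

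ILC2s are lymphocytes without antigen receptors that live in tissues and release type 2 cytokines when epithelial alarm signals such as IL-33 reach them. The study compared naive lung ILC2s with effector cells, taken from adults after IL-33 had been given into the nose on 3 days in a row and isolated 1 day after the last dose. There were 5 groups of 3 arrays each: naive adult females and naive adult males, aged 8 weeks, effector adult females, effector adult males, and naive neonates aged 10 days. No genetic alteration is named for any group. The sources used here do not give the mouse strain, the sex of the neonates, the number of mice in a replicate or the markers used to isolate the cells, so the tests measure the spread between these arrays.

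NF-kB dimers are kept in the cytoplasm by the classical IkB proteins, IkB alpha (Nfkbia) and IkB epsilon (Nfkbie). Signals such as IL-33, which acts through the adaptor MyD88, lead the IkB kinases to mark these inhibitors for destruction, and the freed dimers enter the nucleus and switch on genes that include their own inhibitors. A second set of IkB proteins, Bcl-3 (Bcl3), IkB NS (Nfkbid) and IkB zeta (Nfkbiz), acts in the nucleus, where each binds dimers on DNA and can raise or lower transcription of chosen genes. In IL-33 signalling NF-kB works beside AP-1 and other factors to turn on cytokine genes.

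Promoter windows from RefSeq (mouse build GRCm38.p6), running from 250 bases before to 50 after an annotated start, are shown because several of these genes are known targets of NF-kB itself. Of the 10 genes, 7 matched an entry in that table; the others were Nfkb1, Relb and Nfkbiz. Both strands were searched for the kappaB consensus, a motif of 10 letters bound by NF-kB dimers. The consensus was found in at least 1 window of 7 of 7 genes and in 9 of their 12 windows, against 8.46% of 32851 windows of the same length and 9.55% of 27025 genes. Genes with several windows had more chances of a match. Windows of a gene can also overlap: the Nfkb2 windows that start at chr19:46305445 and chr19:46305680 held the same match. The 12 windows are therefore not independent. The match nearest to a start is printed for each gene on the strand of the gene, 5′ to 3′, with the 10 matching bases in capitals.
Nfkb2 (chr19:46304716-46304745, + strand): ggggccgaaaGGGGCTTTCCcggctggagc
Rel (chr11:23771041-23771070, - strand): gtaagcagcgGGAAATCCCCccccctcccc
Nfkbia (chr12:55492657-55492686, - strand): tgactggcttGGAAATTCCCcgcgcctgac
Nfkbie (chr17:45555584-45555613, + strand): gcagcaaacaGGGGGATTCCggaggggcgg
Nfkbid (chr7:30422215-30422244, + strand): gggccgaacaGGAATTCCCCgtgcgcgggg
Bcl3 (chr7:19822734-19822763, - strand): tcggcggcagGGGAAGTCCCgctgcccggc
Tnfaip3 (chr10:19015403-19015432, - strand): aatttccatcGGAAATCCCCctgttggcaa

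Counted with the start as base 1 and the base before it as -1, the first matching base lay at -11 in Nfkb2, -91 in Rel, -29 in Nfkbia, -106 in Nfkbie, -181 in Nfkbid, 3 in Bcl3 and -12 in Tnfaip3. The 250 bases before the start are given for Nfkbia and for the Nfkbid window that held a match. The levels of both genes fell in effector cells, but Nfkb2, Rel, Nfkbie and Bcl3, which rose, also held matches. A link between the matches and the direction of change was not tested. The Nfkbid window held 2 matches, both in capitals.
Nfkbia (chr12:55492648-55492897, - strand): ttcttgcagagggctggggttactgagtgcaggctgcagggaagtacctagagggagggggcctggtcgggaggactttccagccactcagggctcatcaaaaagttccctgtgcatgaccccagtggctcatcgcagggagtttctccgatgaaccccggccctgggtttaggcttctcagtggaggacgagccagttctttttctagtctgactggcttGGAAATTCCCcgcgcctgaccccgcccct
Nfkbid (chr7:30422156-30422405, + strand): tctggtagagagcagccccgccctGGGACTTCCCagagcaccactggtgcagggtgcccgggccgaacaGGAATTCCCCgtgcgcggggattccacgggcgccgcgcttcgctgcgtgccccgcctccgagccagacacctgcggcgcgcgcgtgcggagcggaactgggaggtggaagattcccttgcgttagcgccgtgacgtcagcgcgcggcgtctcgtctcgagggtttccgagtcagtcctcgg
A match is a run of letters in a window, and binding was not measured in this study.

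All values are log2 expression levels, so a difference of 1 is a 2-fold change. The array medians ran from 4.56 to 4.64 in naive adults, 4.44 to 4.50 in effector adults and 4.50 to 4.63 in neonates. All effector arrays had lower medians than all other arrays, so the median went with the state compared. The 3 arrays that correlated least with the others were naive male arrays 1 and 2 and neonatal array 2. The label of the cells was checked against Gata3, a transcription factor of ILC2s that is not specific to them. Its level was 8.83 ± 0.22 (SD, n = 6) in naive adults, 8.72 ± 0.18 (SD, n = 6) in effector adults and 8.75 ± 0.07 (SD, n = 3) in neonates. Il13, a type 2 cytokine, stood at 7.50 ± 0.22 (SD, n = 6) in naive adults, 10.57 ± 0.47 (SD, n = 6) in effector adults and 9.87 ± 0.29 (SD, n = 3) in neonates. Il5, a second type 2 cytokine, stood at 7.00 ± 0.57, 8.46 ± 0.54 and 8.95 ± 0.63 in the same order. The B cell gene Ms4a1 (3.57, 3.23 and 3.59) and the epithelial gene Epcam (4.36, 4.41 and 4.41) had low means in every group. Their lists stood higher, with means of 4.77, 4.44 and 4.75 for 9 B cell genes. The means of 12 epithelial genes were 4.86, 4.78 and 5.11. On single arrays this epithelial mean was 4.75 to 5.05 in naive adults and 4.89 to 5.23 in neonates. The mean levels of some marker lists moved with the states and are given beside the results. As a scale for weak signal, 387 olfactory and vomeronasal receptor genes that passed the filter had an upper quartile of 5.22 in naive adults, 4.35 in effector adults and 4.68 in neonates. All 9 NF-kB genes had group means above that quartile in each of the 3 states, with Bcl3 in naive adults, at 5.95, the nearest to it. The 99th percentile of the receptor genes was 7.61 in naive adults, 6.20 in effector adults and 6.33 in neonates. In naive adults Bcl3, Nfkbie (6.60) and Relb (7.12) lay below it, within the range of weak signal. In effector adults and neonates all 9 means lay above it.

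In effector cells the NF-kB genes moved in both directions. The subunit genes Nfkb2 and Rel, the classical inhibitor gene Nfkbie and the nuclear IkB gene Bcl3 rose. The classical inhibitor gene Nfkbia and the nuclear IkB genes Nfkbid and Nfkbiz fell. Relb and Tnfaip3 did not pass the test. These 7 of 9 genes were called by limma at an adjusted p under 0.05 when effector adults were compared with naive adults over both sexes (6 arrays against 6), where 34.6% of all 16257 genes tested were called, 23.7% as higher and 10.9% as lower. The ranges of the 2 groups did not overlap for 5 of the 9 genes, 2 higher and 3 lower, against 20.1% of all genes, 15.2% higher and 4.93% lower. The median difference of the 9 genes was 0.28, beside 0.03 for all genes. Each array holds RNA from many cells, so a change in the share of cells with a transcript and a change in RNA per cell cannot be told apart.

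Markers of other cells also moved between naive and effector adults. The mean level of the dendritic cell list was 5.15 to 5.44 on naive arrays and 5.61 to 5.77 on effector arrays, with 2 of 7 genes called higher and 1 lower. Lists that lay lower on all effector arrays than on any naive array were those of T cells (5.24 to 5.45 against 5.04 to 5.21, 2 of 9 called lower), B cells (4.66 to 4.89 against 4.25 to 4.62, 1 of 6 higher and 1 lower) and neutrophils (3.75 to 4.43 against 3.45 to 3.66, 1 of 5 lower). Of 12 endothelial genes 5 were called lower, and of 9 macrophage and monocyte genes 4 were lower and 1 higher, with list means that overlapped. Weak signal fell as well. The upper quartile of the olfactory and vomeronasal receptor genes went from 5.22 in naive to 4.35 in effector adults. Without the filter it went from 4.07 to 3.36. The list means went from 5.35 to 5.10 for T cells, 4.77 to 4.44 for B cells and 3.94 to 3.57 for neutrophils. The part of weak signal in the lower list means, and of the marker genes in the NF-kB results, was not tested.

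**Figure D1:**
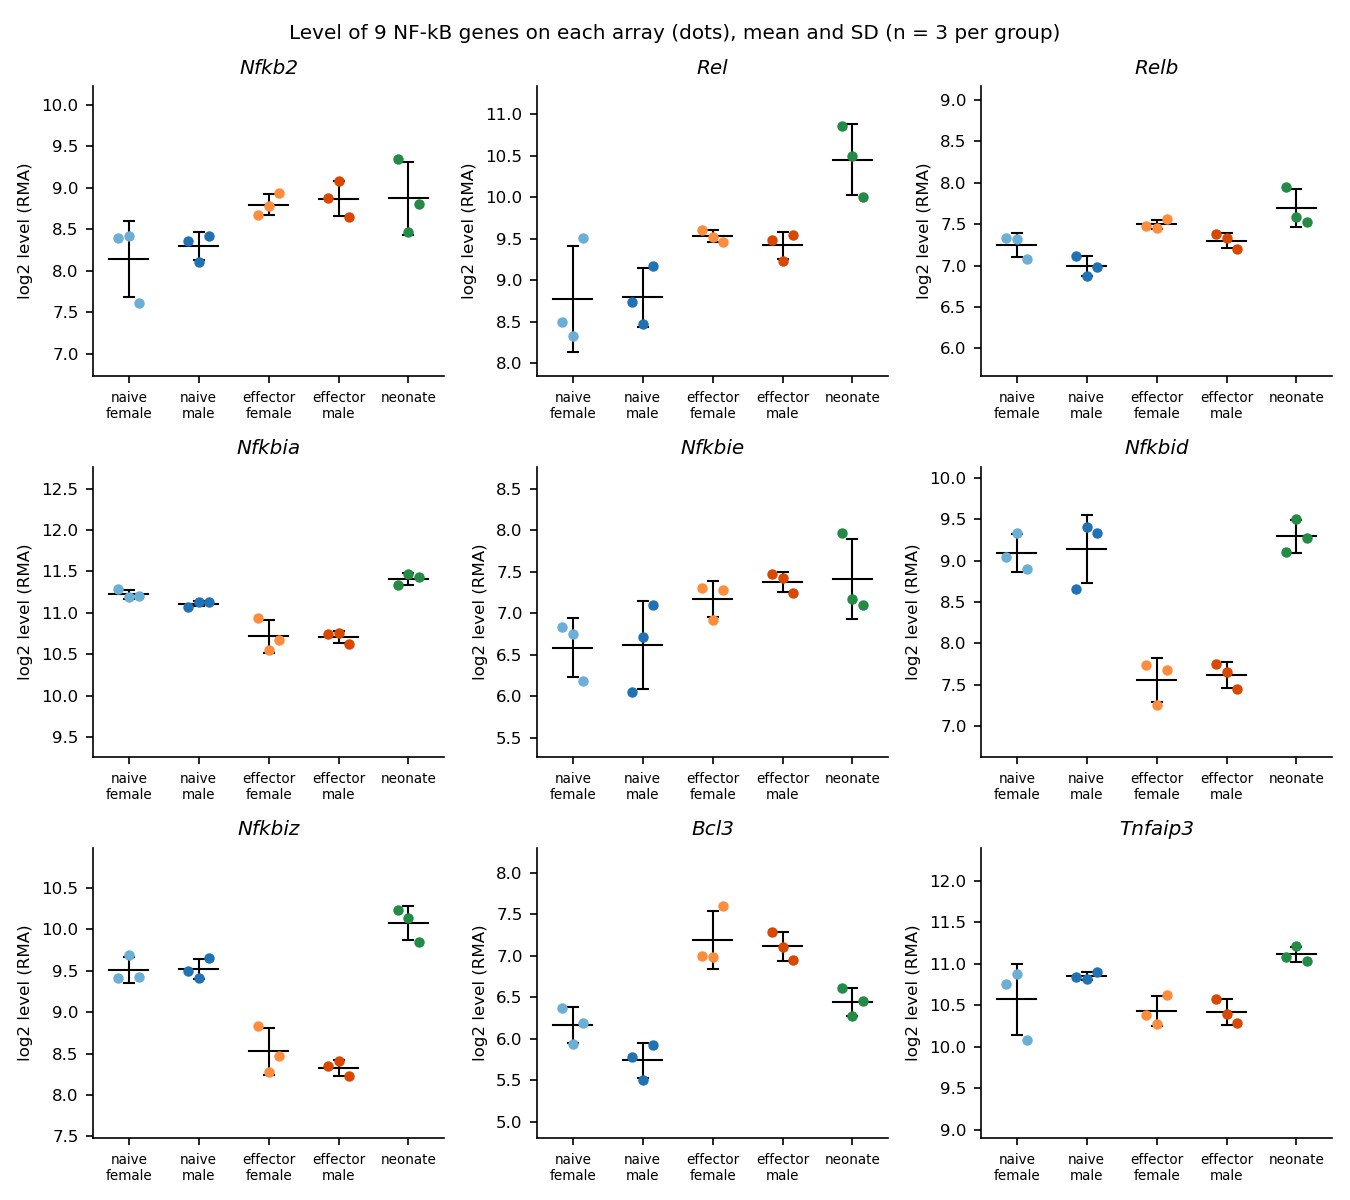
Log2 expression level (y axis) of 9 NF-kB genes on each of 15 arrays (dots), with the mean and SD of each group of 3 arrays as lines; each panel has its own y range of equal height. The effector arrays of Nfkbid and Nfkbiz lie below all naive adult and neonatal arrays, and those of Bcl3 lie above them.

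Rel encodes c-Rel, a subunit that lymphocytes induce on activation. Its level was 8.50, 8.33 and 9.51 in naive females, 8.74, 8.48 and 9.18 in naive males, 9.61, 9.52 and 9.46 in effector females and 9.48, 9.23 and 9.55 in effector males. Naive female array 3 reached the effector range, so the groups overlapped. The rise was 0.69 ± 0.20 (SE, adjusted p = 0.0161), or 1.61-fold.

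Nfkb2 encodes p100, which can act as an inhibitor and is cut to the subunit p52 in the alternative pathway. The lowest, median and highest levels were 7.61, 8.38 and 8.42 in naive adults and 8.65, 8.83 and 9.08 in effector adults, so every effector array lay above every naive array. The rise was 0.61 ± 0.17 (SE, adjusted p = 0.0127). Relb encodes the partner of p52 and spanned 6.88 to 7.34 in naive adults and 7.20 to 7.56 in effector adults. Its difference of 0.28 ± 0.11 missed the threshold (adjusted p = 0.0632) and changed with the scaling: it passed when each array was centred on its median (0.42, adjusted p = 0.00885) and was near 0 after a further quantile normalization (0.078, adjusted p = 0.657). Rela, which encodes the main activating subunit p65 and is not among the 10 listed genes, differed by 0.20 ± 0.14 (adjusted p = 0.299), with an interval from -0.10 to 0.51.

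Nfkbia and Nfkbie, the genes of the classical inhibitors, moved in opposite directions. Nfkbia lay between 11.08 and 11.29 in naive adults and between 10.55 and 10.94 in effector adults. Every effector array was below every naive array, and the level fell by 0.45 ± 0.10 (SE, adjusted p = 0.00286). Nfkbie had its lowest, median and highest levels at 6.05, 6.73 and 7.10 in naive adults and at 6.92, 7.29 and 7.48 in effector adults. The naive arrays were widely spread and reached into the effector range, and the level rose by 0.67 ± 0.20 (SE, adjusted p = 0.0162). Nfkbib, which encodes IkB beta and is not among the listed genes, rose by 0.59 ± 0.14 (adjusted p = 0.00483) with no overlap.

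Among the nuclear IkB genes, Nfkbid and Nfkbiz fell and Bcl3 rose. The levels of Nfkbid, which encodes IkB NS, were 9.04, 9.34 and 8.89 in naive females, 8.66, 9.41 and 9.33 in naive males, 7.75, 7.26 and 7.68 in effector females and 7.76, 7.65 and 7.46 in effector males. All 6 effector arrays lay below all 6 naive arrays, and the difference of -1.52 ± 0.15 (SE, adjusted p = 2.6e-06) corresponds to a level 2.87-fold lower. In a ranking of all genes by this difference, 174 of 16257 genes, Nfkbid included, fell at least as far.

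Nfkbiz encodes IkB zeta, known as an inducible cofactor for a second wave of NF-kB targets. Its levels were 9.41, 9.69 and 9.42 in naive females, 9.49, 9.41 and 9.65 in naive males, 8.84, 8.27 and 8.47 in effector females and 8.35, 8.41 and 8.22 in effector males. The groups did not overlap, and the level was 2.12-fold lower in effector cells (SE of the log2 difference 0.12, adjusted p = 1e-05).

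Bcl3 encodes a partner of p50 and p52 dimers. Its levels were 6.37, 5.93 and 6.19 in naive females, 5.78, 5.51 and 5.93 in naive males, 7.00, 6.98 and 7.60 in effector females and 7.29, 7.11 and 6.95 in effector males. Every effector array lay above every naive array. The rise of 1.20 ± 0.14 (SE, adjusted p = 1.3e-05), or 2.30-fold, was the one rise of at least 2-fold among the 9 genes.

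Tnfaip3 encodes A20, an enzyme that edits ubiquitin chains and shuts down signalling to the IkB kinases. Its levels were 10.76, 10.87 and 10.08 in naive females, 10.84, 10.81 and 10.90 in naive males, 10.39, 10.27 and 10.62 in effector females and 10.58, 10.39 and 10.28 in effector males. Naive female array 3 lay below all effector arrays, whereas the other 5 naive arrays lay above all of them. The difference was -0.29 ± 0.14 (adjusted p = 0.119), and without that array it was -0.41 (adjusted p = 0.0134). With each array centred on its median it was -0.15 (adjusted p = 0.447). The same array had the lowest Nfkb2 level and the highest Rel level of the naive adults. Leaving it out took the rise of Rel in females to 1.12 (adjusted p = 0.0102).

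The calls of Nfkb2, Rel and Nfkbie were the less steady ones. After a further quantile normalization their differences were 0.44 (adjusted p = 0.0597), 0.52 (adjusted p = 0.0626) and 0.49 (adjusted p = 0.0742). Without the 3 arrays that correlated least they were 0.55 (adjusted p = 0.0593), 0.50 (adjusted p = 0.164) and 0.43 (adjusted p = 0.144). Nfkbia, Nfkbid, Nfkbiz and Bcl3 kept an adjusted p under 0.05 in all 25 alternatives that reprocessed or left out arrays. Centring each array on its median moved the median of all genes from 0.03 to 0.17 and the split of calls from 3855 higher and 1773 lower to 5015 and 1024, and it reversed the direction of none of these 9 genes.

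**Figure D2:**
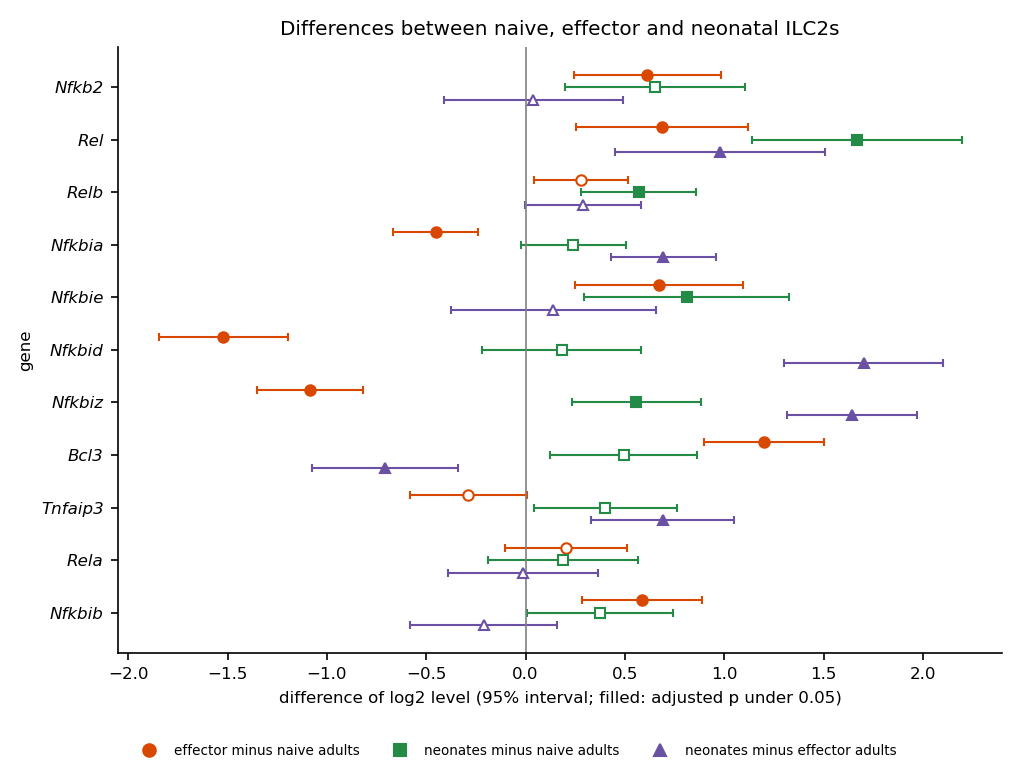
Differences of log2 level (x axis) with 95% intervals for the 9 NF-kB genes, Rela and Nfkbib (y axis) in 3 comparisons; filled symbols passed an adjusted p under 0.05. Nfkbid and Nfkbiz lie left of 0 for effector minus naive adults and right of 0 for neonates minus effector adults, and Bcl3 does the reverse.

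Females and males were compared to ask whether the response to IL-33 differed by sex. In females 4 of 9 genes were called, with Nfkbia, Nfkbid and Nfkbiz lower and Bcl3 higher, where 14% of all genes were called, 10.2% as higher and 3.77% as lower. In males 3 of 9 genes were called, with Nfkbid and Nfkbiz lower and Bcl3 higher, where 24.9% of all genes were called, 18.7% as higher and 6.25% as lower. Nfkbid changed by -1.53 ± 0.22 in females and -1.51 ± 0.22 in males. Nfkbiz changed by -0.98 ± 0.18 and -1.19 ± 0.18. Bcl3 changed by 1.03 ± 0.20 and 1.37 ± 0.20. The call of Nfkbia in females (-0.51 ± 0.14, adjusted p = 0.0275) was lost after centring (-0.38, adjusted p = 0.0895) and without any 1 of naive female arrays 1, 2 and 3 or effector female arrays 2 and 3, reaching -0.42 (adjusted p = 0.131) without effector female array 2. The difference in males was -0.40 ± 0.14 (adjusted p = 0.0538).

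The female response minus the male response gave no call for any of the 9 genes, and limma called 0% of all genes. Of 16257 genes tested, 866 had an unadjusted p under 0.05, where a share of 0.05 is expected if no gene differs. The differences between the responses ran from -0.35 ± 0.28 for Bcl3 to 0.29 ± 0.28 for Tnfaip3, and the lowest adjusted p was 0.982. With SEs of this size a difference between the sexes cannot be told from none, which does not show that the responses are alike. Direct comparisons of females with males also called 0 of 9 genes, where 0.209% of all genes were called in naive adults and 0.0308% in effector adults. In naive cells Bcl3 was 0.43 ± 0.20 higher in females, with no overlap between the 3 arrays of each sex, and its adjusted p was 0.503. Such a gap in that direction was seen for 2 of the 9 genes, Bcl3 and Nfkbia, against 10.1% of all genes.

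**Figure D3:**
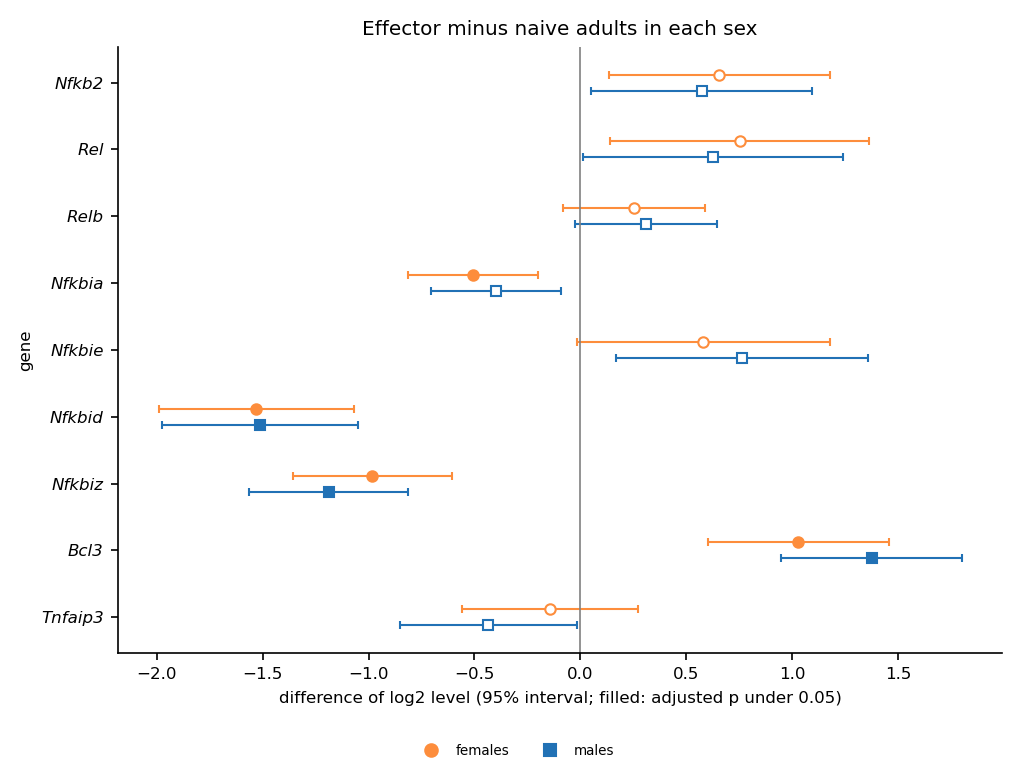
Effector minus naive difference of log2 level (x axis) with 95% intervals for 9 NF-kB genes (y axis), in females (circles) and males (squares); filled symbols passed an adjusted p under 0.05. Nfkbid, Nfkbiz and Bcl3 are filled in both sexes and the intervals of the sexes overlap for every gene.

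Neonatal ILC2s were compared with naive adult cells to ask what differs in early life without IL-33 treatment. Rel, Relb, Nfkbie and Nfkbiz were higher in neonates, and no gene of the set was called lower. These 4 of 9 calls compare with 10.2% of all genes, 6.04% called as higher and 4.12% as lower. The neonatal arrays lay wholly above the naive adult arrays for 7 of 9 genes, against 6.88% of all genes. The median difference of the 9 genes was 0.56, beside 0.02 for all genes.

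Rel had the largest difference of the 9 genes, with neonatal levels of 10.86, 10.50 and 10.00 against a highest naive adult level of 9.51. The difference was 1.67 ± 0.25 (SE, adjusted p = 0.00063), or 3.17-fold, and 105 of 16257 genes, Rel included, rose at least as far. Relb stood at 7.95, 7.59 and 7.53 in neonates against a highest adult level of 7.34, a difference of 0.57 ± 0.14 (adjusted p = 0.0159). Nfkb2, at 9.34, 8.47 and 8.80 in neonates, lay above all naive adults by a narrow margin and differed by 0.65 ± 0.21 (adjusted p = 0.0635).

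The IkB genes and Tnfaip3 were less uniform. Nfkbiz levels were 10.23, 10.14 and 9.84 in neonates, all above the highest adult level of 9.69, with a difference of 0.56 ± 0.15 (adjusted p = 0.0319). Nfkbie levels were 7.97, 7.17 and 7.10, the first far above the others and the last equal to the highest naive adult level at this precision, with a difference of 0.81 ± 0.24 (adjusted p = 0.0459). Nfkbia (0.24 ± 0.12, adjusted p = 0.243) and Tnfaip3 (0.40 ± 0.17, adjusted p = 0.149) had neonatal arrays that all lay above the adult ones but did not pass the test. Nfkbid (0.18 ± 0.19, adjusted p = 0.599) and Bcl3 (0.49 ± 0.17, adjusted p = 0.0856) overlapped.

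The rise of Rel in neonates was called in all 27 alternatives, with differences from 1.45 to 1.89. The other 3 calls were less steady, and all 3 were lost with array weights and with only the arrays compared. Without neonatal array 1, Nfkbie differed by 0.53 (adjusted p = 0.219), Relb by 0.44 (adjusted p = 0.084) and Nfkbiz by 0.48 (adjusted p = 0.123), which left 1 of 9 genes called. Of the 15 fits that each left out 1 array, Rel was called in 15, Relb in 14, Nfkbiz in 10 and Nfkbie in 2. The call of Nfkbie was lost even without any 1 effector array, none of which is in this comparison. Its difference then stayed at 0.81, with an adjusted p of 0.0550 to 0.0612. The count dropped to 2 of 9 genes when array 2 of the naive males, or array 1 or 3 of the naive females, was omitted.

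Markers of other cells moved with this comparison. Of 7 tested mast cell and basophil genes 3 were higher in neonates, Cpa3 by 2.43 ± 0.20, Mcpt8 by 1.80 ± 0.53 and Tpsb2 by 0.98 ± 0.19. The mean level of the 10 such genes with a feature was 4.15 to 4.39 in naive adults and 4.51 to 5.37 in neonates, while the mast cell receptor genes Fcer1a (2.85 and 2.70) and Ms4a2 (4.22 and 4.15) had low means in both. Of 9 T cell genes 2 were higher, among them Cd3e by 1.21 ± 0.25, and the mean of the list was 5.24 to 5.45 in naive adults and 5.56 to 5.73 in neonates. The fibroblast list had means of 4.18 to 4.56 in naive adults and 4.78 to 5.03 in neonates, with 2 of 6 genes higher, and the ILC3 list had means of 5.04 to 5.48 in naive adults and of at least 5.64 in neonates, also with 2 of 6 higher. Their part in the neonatal differences was not tested.

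Neonates were also set against effector adults; the 3 comparisons share their arrays, so they are not independent of each other. In neonates 6 of 9 genes were called, with Rel, Nfkbia, Nfkbid, Nfkbiz and Tnfaip3 higher and Bcl3 lower, where 20.6% of all genes were called, 5.93% as higher and 14.7% as lower. Nfkbid was higher by 1.70 ± 0.19 (adjusted p = 2.9e-05) and Nfkbiz by 1.64 ± 0.15 (adjusted p = 7.5e-06). Rel was higher by 0.98 ± 0.25 (adjusted p = 0.0124), Nfkbia by 0.69 ± 0.12 (adjusted p = 0.00137) and Tnfaip3 by 0.69 ± 0.17 (adjusted p = 0.0102). Bcl3 was lower by 0.71 (log2 difference -0.71 ± 0.17, adjusted p = 0.0101). All 6 showed no overlap, 5 higher and 1 lower, against 24.1% of all genes, 7.92% higher and 16.2% lower. The call of Rel was lost without neonatal array 1 (0.78, adjusted p = 0.0697), that of Bcl3 without neonatal array 2 (-0.62, adjusted p = 0.0531) after quantile normalization (-0.48, adjusted p = 0.0647) and with array weights (-0.71, adjusted p = 0.0519). That of Tnfaip3 was lost without the 3 arrays that correlated least (0.64, adjusted p = 0.0512).

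The order of the 3 states therefore differed from gene to gene. Rel increased from naive adults (8.79 ± 0.46) through effector adults (9.48 ± 0.13) to neonates (10.45 ± 0.43), with each step called. Nfkbiz ran from effector adults (8.43 ± 0.22) through naive adults (9.51 ± 0.13) to neonates (10.07 ± 0.21), again with each step called. Nfkbid was low in effector adults (7.59 ± 0.20), and naive adults (9.11 ± 0.30) and neonates (9.29 ± 0.20) did not differ beyond their spread. Bcl3 was highest in effector adults (7.15 ± 0.25), and neonates (6.45 ± 0.17) and naive adults (5.95 ± 0.30) did not pass the test. For Nfkb2 the effector adults (8.83 ± 0.16) and neonates (8.87 ± 0.44) did not differ beyond their spread, nor did they for Nfkbie (7.27 ± 0.20 and 7.41 ± 0.49). These errors are SDs over 6 arrays of each adult state and 3 of the neonates.

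**Figure D4:**
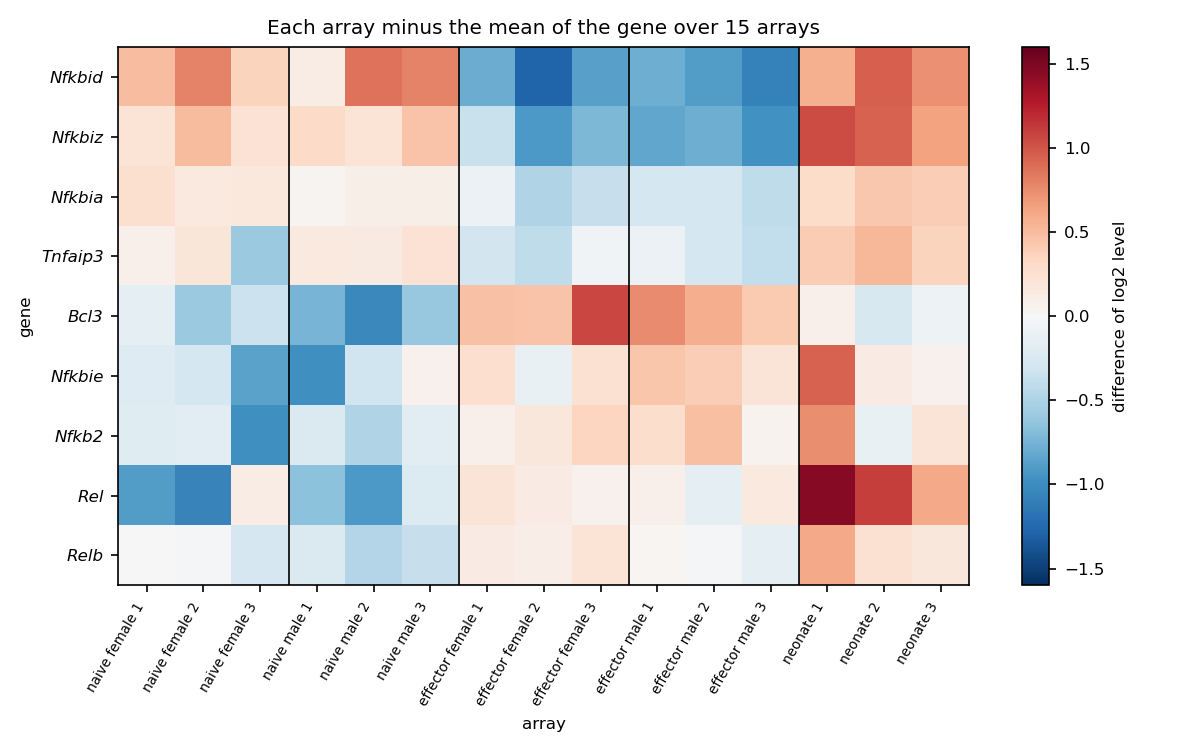
Difference of log2 level from the mean of the gene over 15 arrays (colour scale) for 9 NF-kB genes (rows) on each array (columns), with vertical lines between groups. Nfkbid, Nfkbiz and Nfkbia are below their means on all 6 effector arrays, and Bcl3 is above its mean on them.

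Across the 15 arrays Nfkbia, Nfkbid and Nfkbiz varied together, with Pearson correlations of 0.96 (Nfkbia and Nfkbiz), 0.93 (Nfkbia and Nfkbid) and 0.93 (Nfkbid and Nfkbiz). After group means were removed the same values were 0.54, 0.54 and 0.43. Nfkb2 and Relb, whose proteins pair in the alternative pathway, correlated at 0.74 over all arrays and at 0.85 within groups. The correlation of Nfkb2 with Nfkbie was higher over all arrays (0.84) and lower within groups (0.64). Nfkbid and Bcl3 correlated at -0.82 over all arrays and at -0.10 within groups. These values describe arrays that share their groups.

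Among the listed NF-kB genes, Bcl3 and Rel rose most in effector adults, and Nfkbid and Nfkbiz fell most. For each of these, chosen by size of difference, the 3 genes with the most similar pattern over 15 arrays were listed. For Nfkbid they were Ppp1r15a (r = 0.96, and 0.51 with group means removed), Fosb (0.95 and 0.46) and Ahcyl2 (0.95 and 0.73). For Nfkbiz they were Nr4a1 (0.96 and 0.67), Tiparp (0.96 and 0.60) and Nfkbia (0.96 and 0.54). For Bcl3 they were Plxnc1 (0.98 and 0.85), Vim (0.97 and 0.67) and Tgfb3 (0.97 and 0.82), and for Rel they were Car7 (0.93 and 0.67), Fnip1 (0.92 and 0.81) and Tgif1 (0.92 and 0.59). The correlation within groups was lower for each of these genes.

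Immediate early genes, which cells switch on within minutes of a stimulus and also during tissue dissociation, moved with Nfkbia, Nfkbid and Nfkbiz. In effector adults 22 of 31 were lower and 2 higher, where 10.9% of all genes were lower and 23.7% higher, with a median difference of -0.75 beside 0.03 for all genes. The differences were -1.77 ± 0.14 for Btg2, -1.43 ± 0.17 for Zfp36 and -1.37 ± 0.15 for Ppp1r15a, whereas Myc rose by 0.74 ± 0.19. The mean level of the list was 8.77 to 8.99 on naive adult arrays, 8.06 to 8.47 on effector arrays and 8.65 to 8.97 on neonatal arrays. In neonates against naive adults 5 of 31 were higher, among them Nr4a2 by 1.09 ± 0.28, and 3 lower, among them Klf2 at -0.98 ± 0.27, where 6.04% of all genes were higher and 4.12% lower. Their part in the NF-kB results was not tested.

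Of 11 IkB kinase and upstream kinase genes 4 were called in effector cells, a share near the 34.6% of all genes. Of these 2 rose, Map3k8 (the kinase Tpl2, held by p105) by 1.23 ± 0.14 and Tbk1 by 0.81 ± 0.25. Another 2 fell, with Ikbkb, the catalytic subunit IKK beta, at -0.38 ± 0.12 and Ikbke at -0.52 ± 0.18. The median of this list was 0.36. In neonates against naive adults Map3k8 was the 1 gene of 11 called, at 1.52 ± 0.17, a share near the 10.2% of all genes.

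Of 9 genes of IL-33 receptor signalling, 4 rose in effector cells and none fell, with a median of 0.33, where 23.7% of all genes were called higher and 10.9% lower. Myd88 rose by 0.91 ± 0.15, the ubiquitin ligase genes Traf6 and Peli1 by 0.80 ± 0.24 and 0.78 ± 0.17, and Sigirr, a receptor that dampens IL-1 family signals, by 0.62 ± 0.15. In neonates against naive adults Peli1 (1.07 ± 0.20) and Tollip (0.57 ± 0.15) were higher and Irak3 (-0.75 ± 0.16) and Sigirr (-0.71 ± 0.18) were lower, where 6.04% of all genes were higher and 4.12% lower. Irak3 and Tollip encode dampers of the same pathway. Il1rl1, the gene of the IL-33 receptor, had no feature with its symbol alone and is not analysed here.

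Of 10 genes of A20 partners and other deubiquitinases, 5 were higher in effector cells and none lower, with a median of 0.34, where 23.7% of all genes were higher and 10.9% lower. Usp18, which is also an interferon-induced gene, rose by 2.16 ± 0.24, Tnip2 by 1.29 ± 0.23, Tnip3 by 0.86 ± 0.19 and Otulin, which removes linear ubiquitin chains, by 0.77 ± 0.15. None of the 10 was called in neonates against naive adults, where 10.2% of all genes were called. Of 11 genes of the TRAF, cIAP and linear ubiquitin group 4 were called in effector cells, a share near the 34.6% of all genes, and all 4 rose, including Traf1 by 0.50 ± 0.15 and Tradd by 0.57 ± 0.17. Birc2 was the 1 gene of 11 called in neonates, at 0.69 ± 0.18, a share near the 10.2% of all genes.

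Of 31 known NF-kB target genes, a list that includes Nfkb2, Relb, Nfkbia, Nfkbie and Tnfaip3, 13 rose and 4 fell in effector cells, with a median of 0.28, where 23.7% of all genes were higher and 10.9% lower, so the share that fell was near that of all genes. The chemokine gene Cxcl3 rose by 3.09 ± 0.20, the cytokine gene Il6 by 2.75 ± 0.22 and the adhesion gene Vcam1 by 1.57 ± 0.19. Tnf, the gene of tumour necrosis factor, fell by 1.93 ± 0.30. In neonates against naive adults 8 were higher and 1 lower, with a median of 0.37, where 6.04% of all genes were higher and 4.12% lower. Ptgs2, which encodes cyclooxygenase 2, was higher by 3.22 ± 0.30, Cxcl3 by 3.12 ± 0.25 and Tnfrsf9 by 1.39 ± 0.35, and Cd40 was lower at -0.47 ± 0.12.

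**Figure D5:**
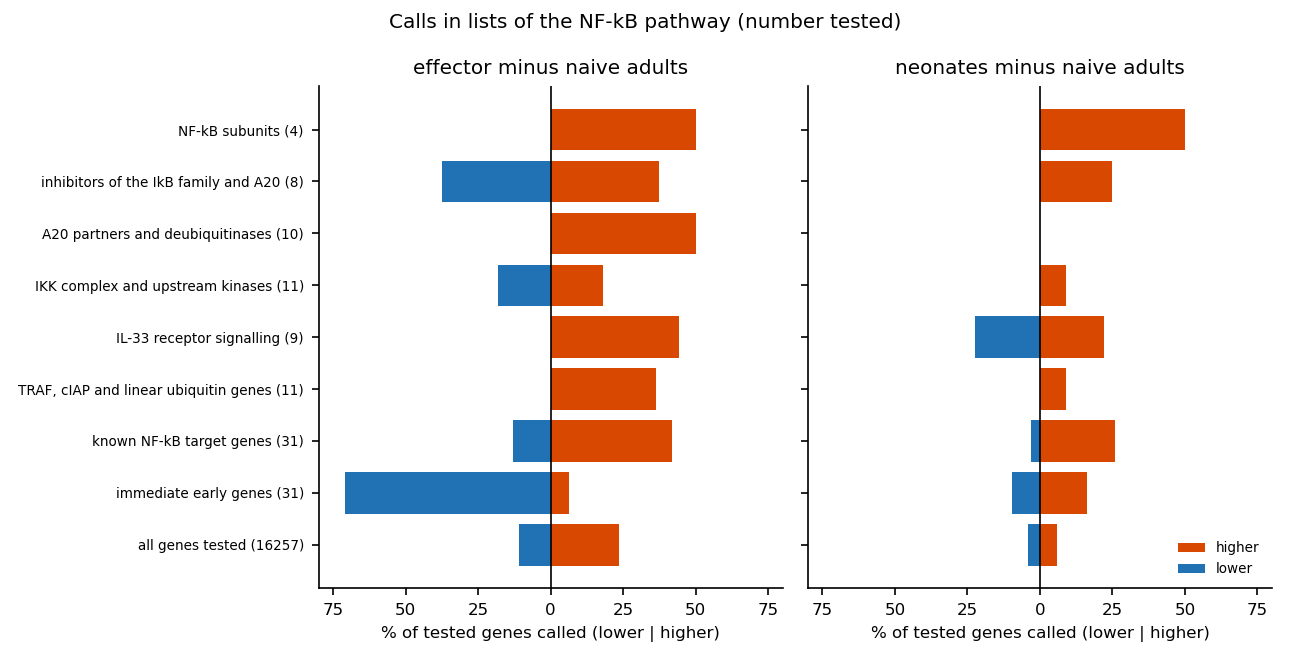
Percent of tested genes called lower (blue, left) or higher (orange, right) at an adjusted p under 0.05 (x axis) in lists of the NF-kB pathway and in all genes (y axis, number tested in brackets), for effector minus naive adults and for neonates minus naive adults. Immediate early genes are mostly called lower in effector cells, with 22 of 31 lower and 2 higher.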

How the data were processed

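Total RNA from isolated lung ILC2s, extracted with Trizol and labelled with biotin, was hybridised to 15 Affymetrix arrays, 1 per replicate. The deposited values are log2 levels that the authors made with Affymetrix Expression Console and RMA, per the submitters' processing notes; the sources used here give no versions and no batches. RMA brings the distributions of the arrays closer to each other, so levels are relative within this set. The deposited values were not made equal, as array medians still ran from 4.44 to 4.64. A further quantile normalization changed the number of calls. Of 41345 features 23521 carried 1 gene symbol, 1814 several and 16010 none in the platform annotation; the last 2 kinds were left out. Features above percentile 40 of their array on at least 3 arrays were kept, and of several features of a gene the one with the highest mean was used, which left 16257 genes.

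With limma 3.58.1 (R 4.3.3), 1 linear model over the 15 arrays estimated each group's mean (empirical Bayes, 10 residual and 5.05 prior degrees of freedom), and 8 two-sided comparisons weighted the adult sexes equally. Benjamini-Hochberg adjustment ran over all genes tested, with calls at an adjusted p under 0.05. SEs are those of this fit; SDs are over arrays. The procedure was tested on simulated data. Precision is limited by the number of arrays.

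The listed genes and the gene lists were chosen with earlier results of these data known, so no list is independent evidence. Named are all listed genes, Rela, up to 4 called genes of each pathway list by size of the difference in effector cells and up to 3 in neonates, not all of which are printed, the 3 most similar genes of the 2 strongest rises and 2 strongest falls, and Gata3, Il5 and Il13; others, such as Nfkbib, Myc and the marker genes, were added after their values were seen. One gene list is not reported here. Alternatives changed the filter, scaling, prior, weights, arrays and threshold. Promoters were taken from RefSeq. Figures were drawn with matplotlib 3.10.9.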

Additional observations from a re-analysis of the deposited data

Results flagged for a closer look

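Tnfaip3, the gene of A20, had 1 naive adult array far from the other 5. Naive female array 3 stood at 10.08 and the others between 10.76 and 10.90, and the gap to the nearest array was 0.824 of the range of the 6 arrays, above Dixon's 95% critical value. Chance flags about 1 in 20 groups, and each of the 9 genes was examined in both adult states. The mean of naive adults was 10.71 ± 0.31 (SD, n = 6) with that array included.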

How the results depend on the processing

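Effector against naive adults gave 7 called NF-kB genes, 4 after a further quantile normalization or without the 3 arrays that correlate least, 3 with a 2-fold threshold, and 7 to 8 without each array in turn. In females (4 called) the 2-fold threshold left 2 and single arrays left 3 to 4. In males (3 called) the percentile 60 filter gave 5, median centring 7 and single arrays 3 to 4. Neonates against naive adults gave 4, and 1 with array weights, with only the arrays compared, with the 2-fold threshold or against adult females only, 2 without the 3 least correlated arrays, and 1 to 4 without single arrays. Neonates against effector adults gave 6, 2 with the 2-fold threshold and 5 to 6 without single arrays. Sex comparisons called 0 of the 9 genes in every alternative run.

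Signs turned only for values that were not called. Leaving out single arrays took Tnfaip3 in females from -0.39 to 0.0096, and, in neonates against effector adults, Nfkb2 from -0.20 to 0.24 and Nfkbie from -0.14 to 0.30. Nfkb2 in that comparison was -0.067 after centring, and Nfkbid in neonates against naive adults was -0.020 without the 3 least correlated arrays. In the sex comparisons 16, 16 and 11 of 234 values changed sign. The cause was not tested.

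Same replicate numbers did not pair the arrays (30 pairs, correlations -0.11 to 0.10, and 5 of 15 arrays correlated best with their own number). With a replicate block the calls were 7, 3 and 6 for effector against naive, neonates against naive and neonates against effector adults.

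Over all genes, calls in effector against naive adults were 5628, and 1555 at 2-fold. They were 2276 in females, 3745 with array weights, 1226 at 2-fold and as few as 1361 without 1 array. They were 4048 in males, 1981 at 2-fold, 2224 without the 3 least correlated arrays and as few as 2603 without 1 array. Neonates against naive adults gave 1652, 705 with weights, 676 with only the arrays compared, 632 at 2-fold, 935 against females and as few as 1027 without 1 array. Neonates against effector adults gave 3346, 2068 with weights, 1081 at 2-fold, 1942 against females and as few as 2067 without 1 array, and centring moved the split from 964 higher and 2382 lower to 604 and 3083. Naive females against males gave 34, 8 with only the arrays compared, 19 with weights and 16 to 84 without 1 array. Effector females against males gave 5, 11 with weights and 8 with only the arrays compared, and the difference of responses gave 0, and up to 7 without 1 array and up to 1 otherwise. Signal over background limits weak genes most, and 3 arrays per group limit every sex comparison.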
